A study of Mus musculus with 16 samples.

Results

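The proteasome is the main machine that degrades ubiquitin-tagged proteins in the cytosol and nucleus. The genes described here were taken from the deposited liver table by their symbols: every row whose symbol starts with Psma, Psmb, Psmc, Psmd, Psme, Psmf or Psmg followed by a number, without Psmb8 and Psmb9 and without pseudogene symbols. This gave 49 of the 15544 genes in the table. They are the constitutive proteasome only in the main. The rule also takes Psmb10, Psme1 and Psme2, which interferon induces, Psma8 and Psmb11, which belong to proteasomes of testis and thymus, and Psmc3ip and Psme3ip1, which are named after binding partners and encode no proteasome part. The other 47 are proteasome genes.

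RNA of whole liver from female mice of 27 weeks was sequenced as 16 libraries, 4 in each of 4 groups. All mice carried the floxed oestrogen receptor α allele on a CD-1;129P2 mixed background. Control mice (Esr1fl/fl) had no Cre, and mutants (Esr1Nkx2-1Cre) had the receptor deleted where the Nkx2-1 driver is active, which includes the mediobasal hypothalamus and is not a hepatocyte driver. Within each genotype, 4 libraries came from mice on chow and 4 from mice on a high-fat diet (HFD) for 17 weeks. Groups are named Control_Chow, Mutant_Chow, Control_HFD and Mutant_HFD below, and replicates are numbered in the order of deposition, so that equal numbers pair nothing. The numbers in the library titles fall in separate runs within each diet. On HFD, the lower-numbered titles hold 3 controls and 1 mutant (Mutant_HFD 1), and the higher-numbered ones 3 mutants and 1 control (Control_HFD 4). On chow, the lower-numbered titles hold 2 controls and 1 mutant (Control_Chow 1 and 2 and Mutant_Chow 1), and the higher-numbered ones 2 controls and 3 mutants. The labels do not say what these numbers stand for.

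The 26S proteasome is a barrel-shaped core capped by a regulatory particle. The outer rings of the core are built from the α subunits (Psma genes) and the inner rings from the β subunits (Psmb genes), of which Psmb5, Psmb6 and Psmb7 cut proteins. The cap has a base with a ring of ATPases (Psmc genes) that unfolds substrates, and a lid and receptors (Psmd genes) that bind ubiquitin chains and remove them. Dedicated chaperones (Psmg genes, Psmd5, Psmd9, Psmd10) assemble the particle, the activators Psme1 to Psme4 can take the place of a cap, and Psmf1 binds the core as an inhibitor. Cells with too little proteasome activity are known to raise these genes together through the transcription factor Nfe2l1.

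Values are abundances on the TPM scale (transcripts per 1000000), adjusted for depth by the authors. Column totals ranged from 905897 to 1119703, and since no read counts are given the depth behind each value is unknown. Liver identity was clear in each library, with 6 hepatocyte markers summing to between 54010 and 93770. The deleted gene does not check the genotype labels here, as the driver does not act on hepatocytes: Esr1 ranged from 7.59 to 15.9 in Control_Chow, from 8.02 to 19.6 in Mutant_Chow, from 6.14 to 8.09 in Control_HFD and from 6.42 to 22.9 in Mutant_HFD, and neither genotype difference passed the test (adjusted p = 0.998 on chow and 0.527 on HFD, limma). The labels do not say that each library is a separate animal, so the tests measure the spread between these libraries.

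Promoter sequences are shown for the members that hold the core of the antioxidant response element, TGACNNNGC, because Nfe2l1 reads this element with small Maf proteins and because the set holds members that moved in opposite directions in the comparison between HFD libraries below. RefSeq windows (GRCm38.p6, 250 bases before to 50 after the start site) were found for 41 of the 49 genes. The motif was in 6 of these 41 (14.6%), which are Psmb5, Psmb6, Psmc6, Psmd9, Psmd12 and Psme4, against 14.0% of the 27025 genes with a window. Counted from the start site, with bases before it negative, the match ran from -47 to -39 in Psmb5 and from -9 to -1 in Psmb6, both on the gene's strand. On the opposite strand it ran from -227 to -219 in Psmc6 and from -247 to -239 in Psmd12. In Psmd9 and Psme4 the match lay inside the gene as GENCODE draws it, and the Psmd9 match overlapped a GC box. The stretches below are the parts of these windows before both the RefSeq start site and the GENCODE gene, 5′ to 3′ on the gene's strand, with the match in capitals. They lie at chr14:54618023-54618245 on the minus strand for Psmb5, chr11:70525107-70525356 on the plus strand for Psmb6, chr14:45329574-45329787 on the plus strand for Psmc6 and chr11:107479278-107479483 on the plus strand for Psmd12.
Psmb5: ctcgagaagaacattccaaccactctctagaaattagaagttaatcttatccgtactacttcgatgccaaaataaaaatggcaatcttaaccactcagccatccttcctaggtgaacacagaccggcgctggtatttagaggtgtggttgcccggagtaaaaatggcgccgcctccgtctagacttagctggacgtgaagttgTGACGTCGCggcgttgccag
Psmb6: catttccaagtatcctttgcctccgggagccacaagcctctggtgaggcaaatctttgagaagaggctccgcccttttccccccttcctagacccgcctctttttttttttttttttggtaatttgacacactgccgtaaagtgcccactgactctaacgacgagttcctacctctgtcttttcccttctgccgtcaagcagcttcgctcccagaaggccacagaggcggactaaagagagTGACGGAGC
Psmc6: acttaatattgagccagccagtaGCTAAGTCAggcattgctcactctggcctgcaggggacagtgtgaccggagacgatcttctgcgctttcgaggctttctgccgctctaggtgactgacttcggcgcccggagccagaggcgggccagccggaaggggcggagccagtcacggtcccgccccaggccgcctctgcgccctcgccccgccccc
Psmd12: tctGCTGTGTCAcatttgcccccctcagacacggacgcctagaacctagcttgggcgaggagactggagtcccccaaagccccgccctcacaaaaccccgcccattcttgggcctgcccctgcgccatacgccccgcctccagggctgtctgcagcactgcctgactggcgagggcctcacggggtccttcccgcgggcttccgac

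Of the other motifs searched on both strands, the GC box GGCGGG was in 28 of 41 members (68.3%) and in 37.9% of all genes with a window. CCAAT was in 15 members (36.6%, 41.1% of all genes) and TATAAA in 3 (7.32%, 15.7% of all genes). These matches are letters in a window and say nothing of whether a factor binds there. Among the members that were lower in the higher-numbered HFD libraries below, 2 of 16 with a window held TGACNNNGC. Both members that were higher held it, as did 2 of 23 members not called (8.7%) and 14.0% of all genes. In Psme4, which was higher, the match ran across the start site, from -7 to 2.

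Levels differed more between subunits than between libraries. The β ring had the highest median level (128 over 8 genes), led by Psmb6 with a mean of 182 over the 16 libraries (range 137 to 251), then Psmb1 with 169 and Psmb4 with 158. The α ring followed with a median of 78.5 over 8 genes, from 26.6 for Psma2 to 161 for Psma7 among its ubiquitous members. The 6 base ATPases lay close together, from 55.4 for Psmc2 to 77.2 for Psmc3. The 8 lid genes had a median of 47.8 and the 7 assembly genes one of 19.7, from 8.05 for Psmd10 to 38.8 for Psmg4. Subunits present in equal copies in the particle thus had unequal transcript levels: Psmb5, the chymotrypsin-like site, had a mean of 37.5 against 182 for Psmb6, the caspase-like site, and 107 for Psmb7, the trypsin-like site. The ranges of these 3 genes over the 16 libraries did not overlap for Psmb5 (28.9 to 50.8) against either of the others, or for Psmb7 (88.4 to 135) against Psmb6.

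The tissue-restricted genes were near the floor. Psma8, the testis α subunit, ranged from 0.402 to 2.85, and Psmb11, the thymus β subunit, from 0.0182 to 0.247. Psmb11 was therefore not tested, leaving 48 genes of which 46 encode proteasome parts. Psme2b, a copy of Psme2, ranged from 0.290 to 3.12 and Psmc3ip from 0.0735 to 6.10. All other members had means between 8.05 and 182. Within groups the members varied little: the median SD of log2(value + 1) was 0.175 over the 48 genes and 0.260 over all 12704 genes tested.

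**Figure D1:**
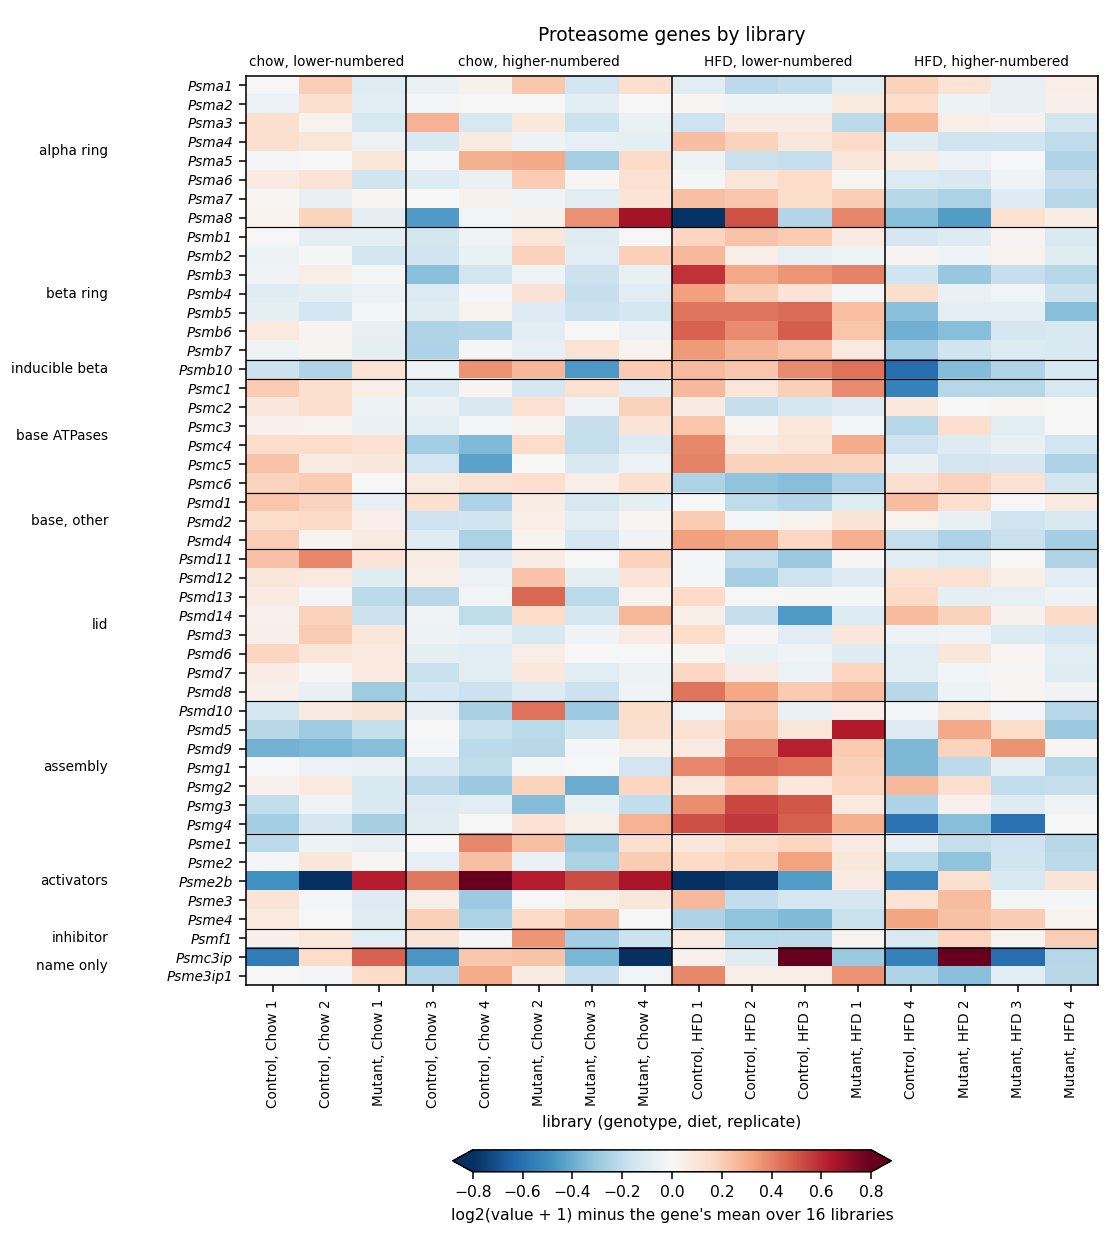
Each row is 1 of the 48 tested genes, grouped by role, and each column 1 library, ordered by diet and title series. Colour gives log2(value + 1) minus the gene's mean over the 16 libraries, from blue (lower) to red (higher), with colours saturated past ±0.8. The lower-numbered HFD libraries are red for much of the β ring and the assembly genes, where the higher-numbered ones are blue, and Psmc6 and Psme4 show the reverse.

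Genotype and diet were compared first, since they are the study's design. None of the 48 genes passed the adjusted threshold in any of these comparisons (limma across all genes, Benjamini-Hochberg, 0.05). Few genes of the whole table did. Between genotypes 0.0236% passed on chow and 0.0157% on HFD, and the share was 0% for HFD against chow within either genotype and for the interaction term. At an unadjusted p under 0.05, 1 member differed between genotypes on chow (6.08% of all genes) and 2 did on HFD (8.6%). Between diets the counts were 7 among controls (12.9%) and 0 among mutants (6.86%), and the interaction gave 1 (4.21%).

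On chow, control and mutant livers had like levels of the catalytic subunits. Psmb5 was 35.1, 33.2, 34.5 and 37.7 in the 4 controls and 36.7, 34.3, 32.7 and 33.4 in the 4 mutants. Psmb7 was 104, 108, 89.2 and 106 in controls and 101, 101.5, 114.5 and 108 in mutants. These groups overlapped for both genes. Over all 48 genes the median log2 difference between mutants and controls was 0.03, against 0.02 for all genes. The smallest adjusted p was that of Psme2b (0.8045, log2 difference 0.62 ± 0.27 SE), followed by Psmd10, an assembly chaperone of the base (0.935), and Psma3, an α subunit (0.949). Some chow libraries differed in other cells: the neutrophil markers, led by S100a8 and S100a9, summed to 21.5 to 5476 in Mutant_Chow and 1.82 to 8.45 in Control_Chow, and the acute-phase genes reached 76680 in Mutant_Chow 2 against 2089 to 2637 in Control_Chow. Their part in these values was not tested.

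On HFD, the difference between mutants and controls had a median of -0.11 over the members and 0.02 over all genes. In the β ring all 7 tested genes were lower in the mutant mean, with a median log2 difference of -0.26, and none passed the test. Of all 12704 genes tested, 5984 were lower. Psmb4, a non-catalytic β subunit, had the smallest adjusted p (0.5405, log2 difference -0.26 ± 0.09 SE). It was 198, 179, 170.0 and 174 in the 4 Control_HFD libraries and 156, 152, 155 and 140 in the 4 Mutant_HFD libraries, so the groups did not overlap on this diet. Psmb4 was named for its smallest adjusted p. The share of all genes that separate these groups was not counted, and nothing is read from the gap. On chow, Psmb4 was 147, 149, 145 and 156 in controls and 152, 171, 138 and 147 in mutants, which overlapped. Its interaction term was -0.28 ± 0.13 (adjusted p = 0.895). Psme2b (0.558, log2 difference 0.69 ± 0.27) and Psmb3 (0.577, -0.35 ± 0.17) were next on HFD. With libraries weighted by their quality, 21 members passed (4 higher and 17 lower), as did 30.9% of all genes. The lowest weights went to Control_HFD 4 (0.2275) and Mutant_HFD 1 (0.3294), the libraries in which genotype and title series part, and with title series as a term 0 members passed in limma (0.0157% of all genes). The title series and genotype are uneven within HFD, with 3 of the 4 mutants in the higher-numbered titles. The values for Psmb3, Psmb5, Psmb6 and Psmb7 move with title series, as given below.

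In controls, HFD against chow gave a median log2 difference of 0.07 over the members and -0.01 over all genes. With each column rescaled to 1000000 these medians were -0.11 and -0.16, so the members' direction turned with the scale. As deposited, all 7 β ring genes and all 7 assembly genes were higher in the HFD mean, with medians of 0.27 and 0.32, and none passed the test. Of all 12704 genes tested, 6170 were higher. The smallest adjusted p values were 0.258 for Psmb4 (0.27 ± 0.09 SE), 0.2775 for Psmc6, a base ATPase (-0.34 ± 0.12), and 0.292 for Psmg3, a core chaperone (0.39 ± 0.14). These groups share the Control_HFD libraries with the genotype comparison on HFD, so the 2 sets of values are not independent. Without Control_HFD 4, 10 members passed for diet in controls (9 higher and 1 lower, with 7.28% of all genes), and 13 did with library weights (11 higher and 2 lower, with 17.8% of all genes). The other 3 Control_HFD libraries are all lower-numbered titles, so without Control_HFD 4 diet and title series cannot be told apart in controls. In mutants the members' median diet difference was -0.04 (-0.01 over all genes), and the smallest adjusted p values were 0.724 for Psme2b, 0.747 for Psmd5 and 0.760 for Psmd9, both assembly chaperones of the base. For the interaction, the inhibitor Psmf1 (log2 difference 0.32 ± 0.18) and the core chaperone Psmg4 (-0.57 ± 0.33) followed Psmb4 by unadjusted p, and all 3 had an adjusted p of 0.895, as did other members.

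The clear contrast was between the title series on HFD. With genotype in the fit, 17 of the 48 genes were lower in the higher-numbered HFD libraries (11.6% of all genes) and 2 were higher (13.5% of all genes), at an adjusted p under 0.05 in limma. The median log2 difference was -0.17 over the members and 0.04 over all genes. Each of the 19 genes separated the 4 lower-numbered from the 4 higher-numbered libraries with no overlap. In all, 20 members had every lower-numbered library above every higher-numbered one (16% of all genes) and 4 the opposite (19.6% of all genes). Leaving out Psmc3ip and Psme3ip1 left 18 of 46 genes, 16 lower and 2 higher. In bulk tissue, less RNA per cell and fewer cells of a type cannot be told apart.

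**Figure D2:**
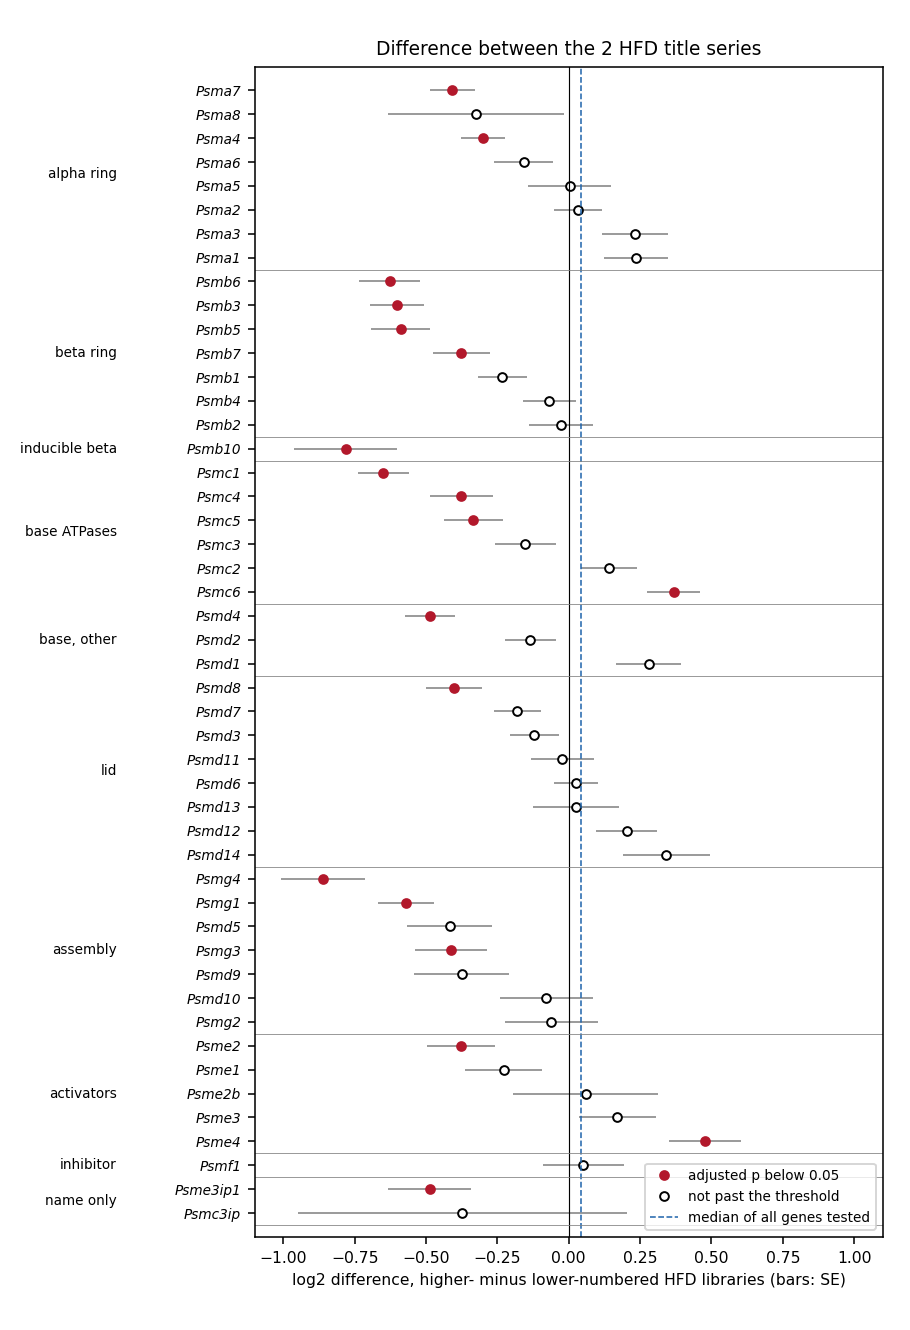
For each of the 48 genes, grouped by role, the point is the log2 difference between the higher- and the lower-numbered HFD libraries (4 against 4, genotype in the fit) and the bar its SE. Filled points passed an adjusted p of 0.05, and the dashed line marks the median of all genes tested (0.04). Points left of 0 are lower in the higher-numbered libraries, as in 17 of the 19 filled ones.

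The 3 catalytic β subunits all fell from the lower- to the higher-numbered HFD libraries. Psmb5 was 43.9 in Mutant_HFD 1 and 50.2, 50.2 and 50.8 in Control_HFD 1 to 3, against 35.0, 35.1 and 28.9 in Mutant_HFD 2 to 4 and 29.1 in Control_HFD 4. The 8 chow libraries had a mean of 34.7 ± 1.73 (SD) and a range of 32.7 to 37.7. All 4 lower-numbered libraries lay above that range, and Mutant_HFD 4 and Control_HFD 4 lay below it. The log2 difference for Psmb5 was -0.59 ± 0.10 SE, a ratio of 1.505 (adjusted p = 0.00166). Psmb6 was 209 in Mutant_HFD 1 and 248, 232.7 and 251 in the lower-numbered controls, against 141, 163, 164 and 137 in the same order of the higher-numbered libraries. Its log2 difference was -0.63 ± 0.11 (adjusted p = 0.00143), with a chow mean of 171 ± 13.4. Psmb7 was 112, 135, 128.5 and 124 in the lower-numbered libraries and 95.2, 98.4, 97.4 and 88.4 in the higher-numbered ones, a log2 difference of -0.38 ± 0.10 (adjusted p = 0.0151).

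Of the other β ring genes, Psmb3, which is not catalytic, was 192, 218, 180.1 and 186.5 in the lower-numbered libraries and 118, 128, 124.5 and 130.5 in the higher-numbered ones (log2 difference -0.60 ± 0.09, adjusted p = 0.000847). Psmb1 (-0.23), Psmb4 (-0.07) and Psmb2 (-0.03) did not pass. In the α ring Psma7 and Psma4 were lower. Psma7 was 184, 190, 187 and 178 against 135, 149, 136.5 and 137 (-0.41 ± 0.08, adjusted p = 0.00268), and chow livers, at 151 to 173, fell between the series without touching either. Psma4 ranged from 118 to 132 against 96.3 to 103 (-0.30 ± 0.08, adjusted p = 0.0130). The other 6 α genes, among them Psma1 (0.23) and Psma3 (0.23), did not pass.

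Psmb10, which takes the place of Psmb7 in the immunoproteasome, had one of the largest differences. It was 106 in Mutant_HFD 1 and 93.6, 91.6 and 102 in the lower-numbered controls, against 61.4, 66.4, 72.1 and 51.1 in the higher-numbered libraries (log2 difference -0.78 ± 0.18, adjusted p = 0.00747). Chow libraries spread from 56.9 to 101, a range that held 2 of the 4 lower-numbered and 3 of the 4 higher-numbered values. The other immunoproteasome catalytic genes, which the rule leaves out, did not pass. Psmb8 ranged from 43.9 to 67.8 in the lower-numbered and from 41.8 to 58.4 in the higher-numbered libraries (-0.33 ± 0.36, adjusted p = 0.541), and Psmb9 from 31.0 to 42.1 and from 23.7 to 31.0 (-0.62, adjusted p = 0.217).

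In the cap, 3 of 6 base ATPases were lower and 1 was higher. Psmc1 was 82.2, 75.8, 67.5 and 72.2 against 53.8, 53.6, 57.5 and 43.0 and had the smallest adjusted p of all members (-0.65 ± 0.09, adjusted p = 0.000499). Psmc4 (-0.38 ± 0.11, adjusted p = 0.0260) and Psmc5 (-0.33 ± 0.10, adjusted p = 0.0316) were also lower. Psmc6 went the other way: it was 46.2, 46.5, 44.0 and 43.4 in the lower-numbered libraries and 62.8, 60.1, 49.9 and 60.5 in the higher-numbered ones (0.37 ± 0.09, adjusted p = 0.0121), and the 8 chow libraries lay between 55.4 and 63.9. Neighbours in the same ATPase ring thus differed in opposite directions. The ubiquitin receptor Psmd4 was 80.5, 82.97, 81.3 and 73.8 against 55.3, 58.0, 54.3 and 57.6 (-0.49 ± 0.09, adjusted p = 0.00191), whereas the scaffold subunits Psmd1 (0.28) and Psmd2 (-0.13) did not pass.

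Of the 8 lid genes Psmd8 alone passed, with 107 to 125 against 79.2 to 93.3 (-0.40 ± 0.10, adjusted p = 0.0104). Psmd14, the lid enzyme that takes ubiquitin off the substrate, was 28.6, 32.0, 27.2 and 22.3 against 35.4, 31.7, 34.5 and 37.1, with 1 overlap between the series (0.34 ± 0.15, adjusted p = 0.117). In the assembly group 3 of 7 passed, all core chaperones. Psmg4 had the largest difference of all members, with 46.4, 54.3, 56.2 and 52.9 against 29.5, 24.5, 37.5 and 24.6 (-0.86 ± 0.15, a ratio of 1.82, adjusted p = 0.00145). Psmg1 ranged from 27.5 to 33.1 against 18.5 to 22.7 (-0.57 ± 0.10, adjusted p = 0.00162) and Psmg3 from 20.5 to 28.4 against 16.1 to 19.8 (-0.41 ± 0.13, adjusted p = 0.0297). The Psmg3 difference turned to 0.14 and did not pass with GC and length trends removed, as described below.

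The activators split. Psme1 and Psme2, which form the interferon-inducible cap and lie beside each other on chromosome 14 (chr14:55578123-55581529 and chr14:55587441-55591113, GRCm38), moved to different extents. Psme1 was 114, 116, 121 and 123 in the lower-numbered and 95.4, 97.2, 93.3 and 105 in the higher-numbered libraries, without overlap but not past the test (-0.23 ± 0.13, adjusted p = 0.238). Psme2 was 129, 135.5, 138 and 152 against 97, 109, 104 and 104 (-0.38 ± 0.12, adjusted p = 0.0331). Psme4, which caps the core in the nucleus, was the other gene that was higher: 19.6, 18.7, 17.65 and 17.2 against 26.4, 25.8, 22.7 and 27.96 (0.48 ± 0.13, adjusted p = 0.0164). Psme3, the nuclear activator, ranged from 27.7 to 38.4 against 31.6 to 38.0 (0.17 ± 0.14, adjusted p = 0.387). Psmf1 was 18.3, 18.9, 15.4 and 15.4 against 20.3, 18.4, 20.8 and 16.5 (0.05 ± 0.14, adjusted p = 0.823). Of the 2 genes matched by name alone, Psme3ip1 was lower (-0.49 ± 0.14, adjusted p = 0.0262) and Psmc3ip did not pass. Psma8 was 2.18, 0.402, 2.46 and 1.06 against 0.781, 1.64, 1.53 and 0.913 (-0.32, adjusted p = 0.474).

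**Figure D3:**
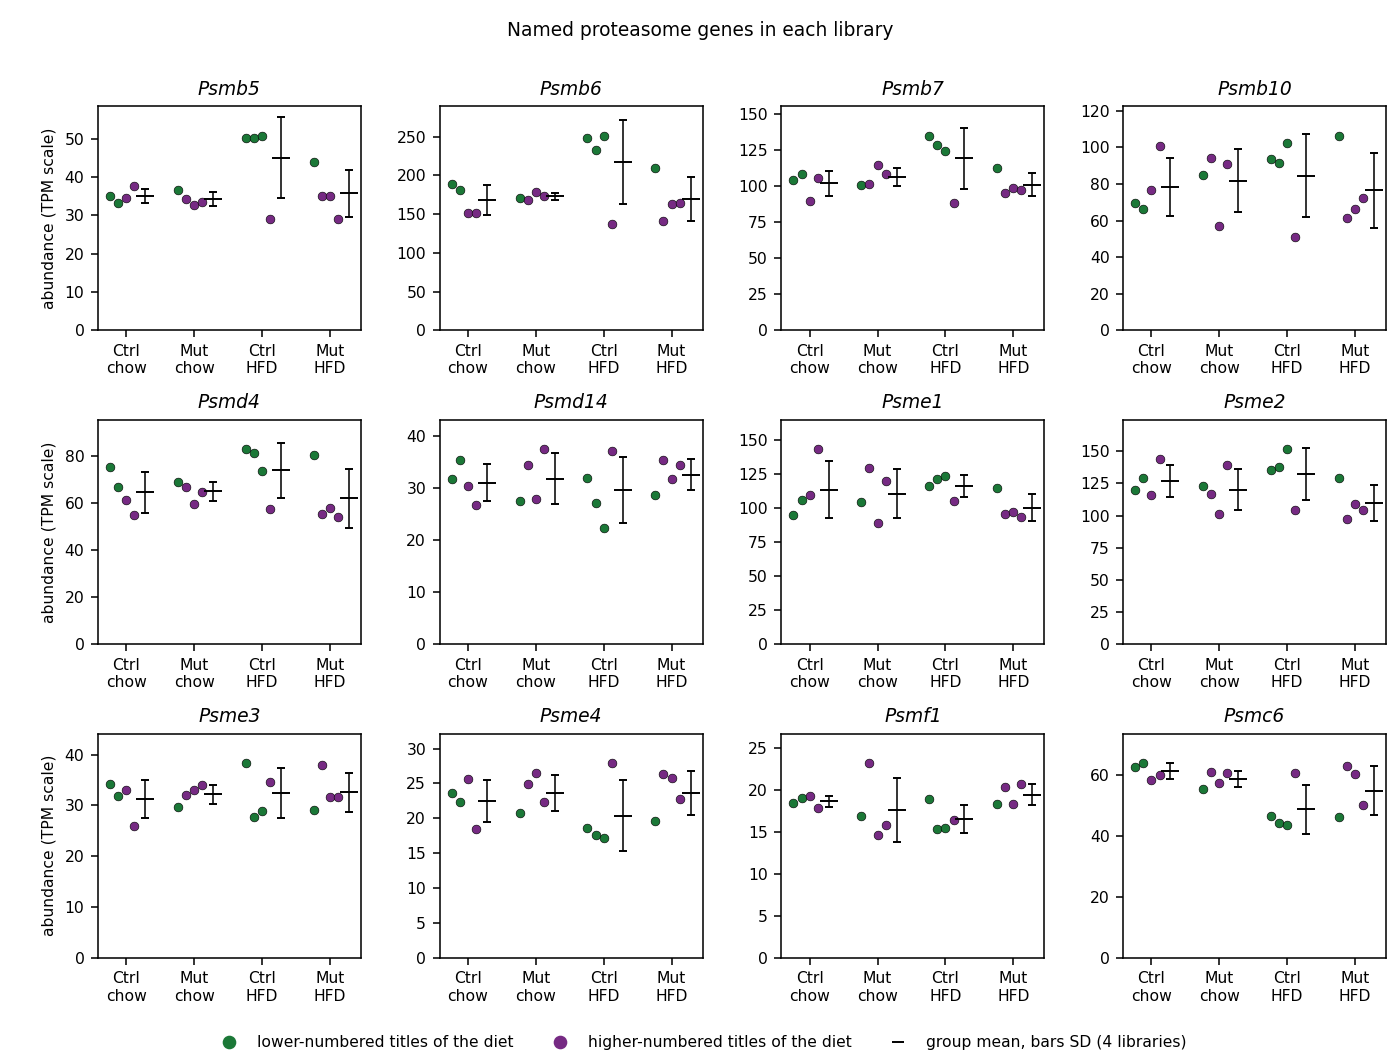
Abundance on the TPM scale (vertical axes from 0) of 12 genes in each library, by genotype and diet. Green points are the lower-numbered and purple points the higher-numbered titles of that diet, and the black bars give the group mean ± SD (n = 4). In Psmb5, Psmb6, Psmb7, Psmb10 and Psmd4 the purple control lies below the 3 green controls on HFD and the green mutant above the 3 purple mutants, and in Psme4 and Psmc6 the order is reversed.

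The chow libraries give the reference for these genes, in the order of replicates 1 to 4. Psmb6 was 189, 182, 151 and 152 in controls and 171, 169, 179 and 173.5 in mutants. Psmb10 was 69.6, 66.4, 76.6 and 101 in controls and 84.7, 94.4, 56.9 and 91.1 in mutants. For both core subunits the genotypes overlapped. In the cap, Psmd4 was 75.4, 66.9, 61.4 and 54.9 in controls and 69.1, 67.0, 59.8 and 64.6 in mutants, and Psmd14 was 31.7, 35.3, 30.4 and 26.8 in controls and 27.4, 34.4, 27.96 and 37.5 in mutants. Receptor and deubiquitinase overlapped between genotypes as well. Among activators, Psme1 was 94.4, 106, 109 and 143 in controls and 104, 129, 88.5 and 119.9 in mutants. Psme2 was 119.8, 129, 116 and 144 in controls and 123, 117, 101.5 and 139.7 in mutants. Both genes of the interferon-inducible cap overlapped and spread more widely than on HFD within a title series. Psme3 was 34.3, 31.7, 33.0 and 25.9 in controls and 29.6, 32.05, 33.0 and 34.0 in mutants. Psme4 was 23.6, 22.3, 25.6 and 18.5 in controls and 20.75, 24.9, 26.5 and 22.4 in mutants. The inhibitor Psmf1 was 18.5, 19.1, 19.35 and 17.8 in controls and 16.9, 23.3, 14.7 and 15.8 in mutants, so that no regulator separated the genotypes.

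The ATPases overlapped between genotypes on chow too. Psmc1 was 72.8, 69.1, 58.1 and 63.9 in controls and 65.1, 57.5, 68.6 and 60.0 in mutants. Psmc6 was 62.6, 63.9, 58.2 and 60.0 in controls and 55.4, 60.8, 57.3 and 60.4 in mutants. Psmc4 and Psmc5 were the ATPases with the smallest adjusted p between the chow title series. Psmc4 was 61.3, 61.4, 45.55 and 43.2 in controls and 60.15, 61.5, 48.4 and 51.5 in mutants. Psmc5 was 71.5, 63.9, 54.4 and 44.8 in controls and 64.7, 60.8, 55.9 and 58.7 in mutants, where controls 1 and 2 and mutant 1 belong to the lower-numbered titles. Those 3 libraries lay above all others of the diet for Psmc5 but not for Psmc4. The β subunit Psmb3 was 143, 150.5, 115 and 131 in controls and 145, 142, 129 and 139.7 in mutants, and the α subunit Psma3 was 74.6, 69.55, 82.8 and 62.1 in controls and 62.3, 72.15, 60.4 and 65.7 in mutants.

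Of the assembly genes, Psmg3 was 16.8, 18.99, 17.9 and 18.1 in controls and 17.7, 15.02, 18.6 and 16.75 in mutants on chow. Psmg4 was 31.1, 34.15, 35.2 and 37.7 in controls and 31.2, 40.95, 38.9 and 45.8 in mutants. These core chaperones overlapped between genotypes. Base chaperones that came up in the genotype or diet comparisons were variable in single libraries. Psmd10 was 7.18, 8.45, 7.597 and 6.501 in Control_Chow 1 to 4 and 8.65, 11.1, 6.33 and 8.91 in Mutant_Chow 1 to 4, and 7.84, 9.315, 7.65 and 7.92 in Control_HFD 1 to 4 and 8.315, 8.53, 7.90 and 6.66 in Mutant_HFD 1 to 4. Psmd5 was 12.2, 11.7, 14.45 and 12.6 in Control_Chow 1 to 4 and 12.5, 12.3, 12.8 and 15.8 in Mutant_Chow 1 to 4, and 15.7, 17.0, 15.5 and 13.3 in Control_HFD 1 to 4 and 22.95, 17.97, 16.05 and 11.5 in Mutant_HFD 1 to 4. The highest value of Psmd10 was in Mutant_Chow 2 and that of Psmd5 in Mutant_HFD 1. Psmd9 was 17.6, 17.8, 22.9 and 19.95 in Control_Chow 1 to 4 and 18.2, 19.8, 23.1 and 24.05 in Mutant_Chow 1 to 4, and 24.4, 31.0, 36.3 and 17.9 in Control_HFD 1 to 4 and 27.0, 26.4, 30.1 and 23.5 in Mutant_HFD 1 to 4.

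The low-level genes were unsteady. Psme2b was 0.635, 0.303, 2.07 and 3.12 in Control_Chow 1 to 4 and 2.54, 2.54, 2.28 and 2.605 in Mutant_Chow 1 to 4, and 0.290, 0.344, 0.6825 and 0.5875 in Control_HFD 1 to 4 and 1.40, 1.49, 1.105 and 1.46 in Mutant_HFD 1 to 4. On HFD its genotypes did not overlap, at values near the floor, and on chow they did. The share of all genes that separate the genotypes on HFD was not counted. Psma8 was 1.47, 1.75, 0.773 and 1.39 in Control_Chow 1 to 4 and 1.31, 1.48, 2.13 and 2.85 in Mutant_Chow 1 to 4. Psmb11 was 0.164, 0.225, 0.110 and 0.109 in Control_Chow 1 to 4 and 0.212, 0.0373, 0.102 and 0.0383 in Mutant_Chow 1 to 4, and 0.0826, 0.175, 0.0182 and 0.0923 in Control_HFD 1 to 4 and 0.217, 0.247, 0.120 and 0.176 in Mutant_HFD 1 to 4, below 1 throughout.

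Set against the 8 chow libraries, the lower-numbered HFD series stood apart in more members than the higher-numbered one. The same was so over all genes, and it is not particular to the members. All 4 lower-numbered libraries lay above all 8 chow libraries in 9 genes, which are Psma7, Psmb3, Psmb5, Psmb6, Psmd8, Psmd9, Psmg1, Psmg3 and Psmg4 (7.79% of all genes), and below all 8 in Psmc6 (7.93% of all genes). The higher-numbered libraries lay above chow in 0 genes (1.27% of all genes) and below it in Psma7 (0.952% of all genes). On chow itself none of the 48 genes differed between the title series (0% of all genes in limma), and 5 had an unadjusted p under 0.05 (11.6% of all genes). The smallest adjusted p values there were 0.257 for Psmc5 (log2 difference -0.32 ± 0.10), 0.262 for Psmc4 (-0.33 ± 0.10) and 0.276 for Psme2b (0.72 ± 0.23).

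The summed level of the 49 genes was 3236 to 3494 in the lower-numbered HFD libraries, 2724 to 2836 in the higher-numbered ones and 2773 to 3116 on chow. The column totals differed alongside, at 1039795 to 1119703 in the lower-numbered and 947756 to 1017353 in the higher-numbered libraries. With each column rescaled to 1000000, the sums were 2940 to 3360 and 2787 to 2940, which met at 2940. On that scale 16 of the 48 members passed, 9 lower and 7 higher, in place of 17 and 2, and 27.8% of all genes passed, with medians of -0.02 over the members and 0.17 over all genes. Psmb3, Psmb5, Psmb6, Psmb10, Psmc1, Psmd4, Psma7, Psmg1 and Psmg4 were lower and Psmc6 and Psme4 higher on both scales.

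**Figure D4:**
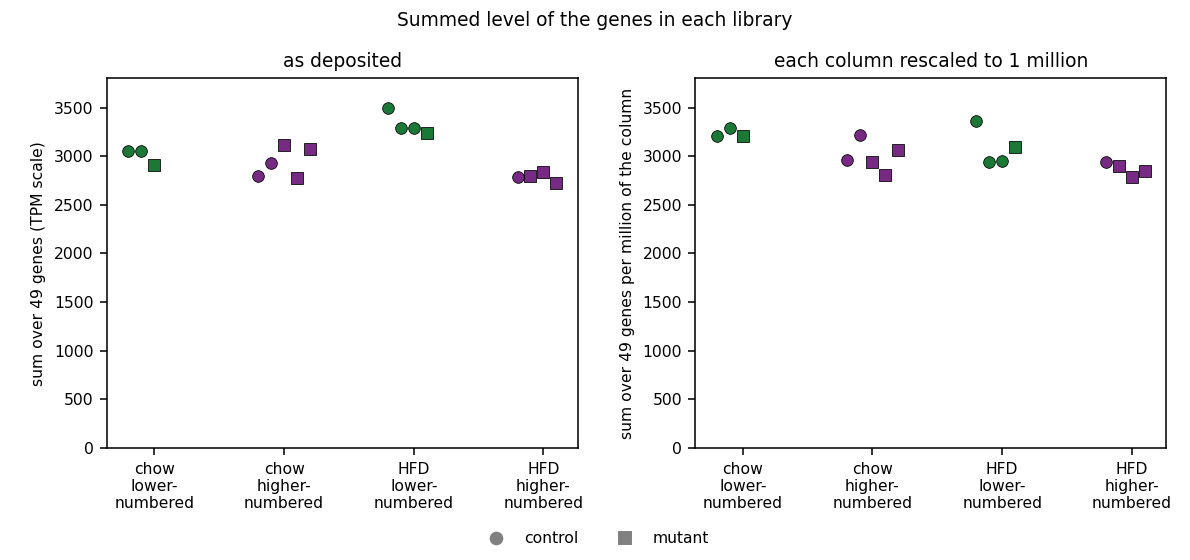
Sum over the 49 genes in each library, as deposited (left) and with the column rescaled to 1000000 (right), by diet and title series. Circles are controls and squares mutants, and the axes start at 0. The HFD series are apart on the left (3236 to 3494 against 2724 to 2836) and meet on the right at 2940.

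The HFD series difference also moved with the base composition and length of the transcripts, across all genes and among the members. Transcript GC content and the log2 difference had a Spearman correlation of -0.51 across 12696 genes and -0.62 across the 48 members, and transcript length one of 0.40 and 0.46. These are descriptions across genes measured in the same 8 libraries. The members called lower had a median GC content of 53.5% and length of 1160 bases, and all genes tested 50.25% and 2664.5 bases, whereas Psmc6 (37.0% GC) and Psme4 (43.9% GC, 6491 bases) are poorer in GC. With the genes split into 3 equal bins by GC content, 9 of 13 members were lower in the bin of the highest content (24.1% of all genes of that bin), 7 of 19 in the middle bin (8.34%) and 1 of 16 in the lowest bin (2.43%).

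**Figure D5:**
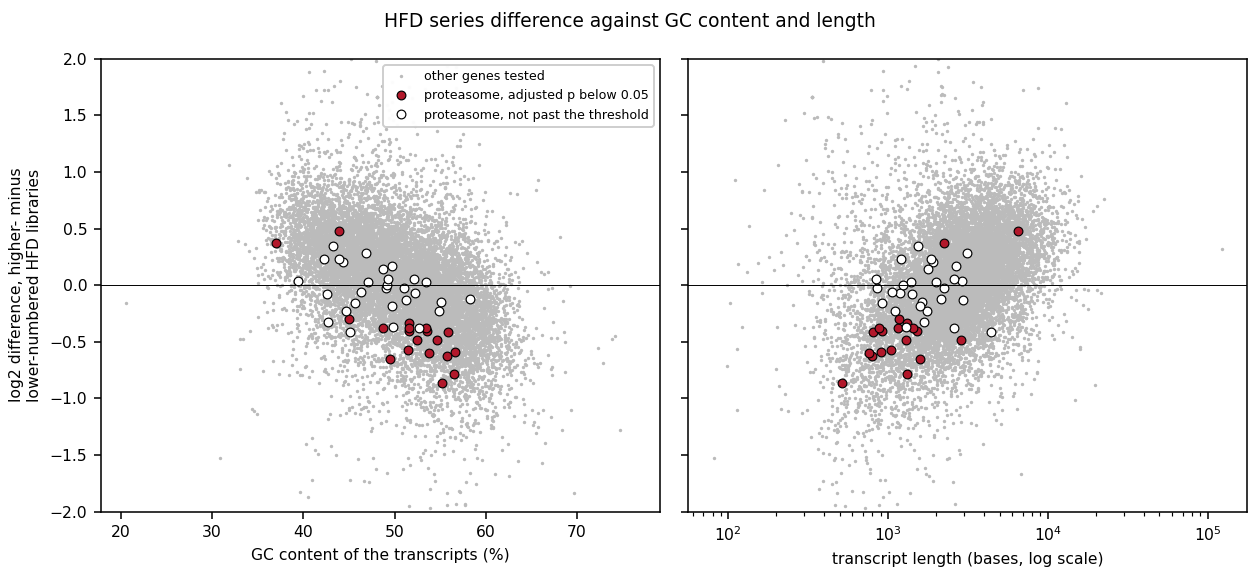
Log2 difference between the higher- and lower-numbered HFD libraries (vertical axis) against transcript GC content (left) and length on a log axis (right) for 12696 genes in grey and the 48 proteasome genes as circles, filled where the adjusted p was under 0.05. The plot is limited to ±2, which leaves out 69 other genes. Filled circles below 0 have a median GC content of 53.5% and a median length of 1160 bases.

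When smooth trends on GC content and length were taken out of each library, an alternative chosen after seeing the data, 5 members were lower and 0 higher in the higher-numbered HFD libraries (4.15% of all genes were lower). Psmc1 (log2 difference -0.61 ± 0.09, adjusted p = 0.00349) and Psma4 (-0.31 ± 0.08, adjusted p = 0.0293) were 2 of them and had been called before. Psmd5, Psma2 and Psmb1 were called only in this fit (-0.76, -0.40 and -0.37). Over the 19 genes the median difference went from -0.41 to -0.14. Psmb5 was then at -0.05, Psmb6 at -0.08, Psmb10 at -0.37, Psme4 at 0.03 and Psmc6 at -0.06, and none of these 5 passed. In all, 9 members changed sign, Psma2, Psma3, Psmb2, Psmb4, Psmc3, Psmc6, Psmd3, Psme1 and Psmg3. What part GC content and length have in the separation was not tested beyond this fit.

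The calls also leaned on 1 library. Without Control_HFD 4, the single control of the higher-numbered series, 3 members remained past the threshold, Psmb3 (-0.63), Psmc1 (-0.57) and Psmd4 (-0.52), while 5.61% of all genes passed in either direction and the members' median was -0.15. Without Mutant_HFD 1 the count was 15 of 48, with 13 lower and 2 higher, and 14.7% of all genes passed, against 25.2% with all libraries. Psmc1 was the gene that passed as deposited, rescaled, with the GC and length trends removed and without any single library.

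Summed markers of some other cells and of liver state separated the HFD title series too. Over all genes, 11.6% were called lower and 13.5% higher, so 1 call in a list of 5 to 7 genes is near those shares. The 5 red cell markers summed to 4830 to 6922 in the lower-numbered and 1695 to 4547 in the higher-numbered HFD libraries, and 2 of the 5 were called lower. The 7 acute-phase genes summed to 3720 to 13700 against 2013 to 2869 (1 of 7 called lower). The 6 hepatocyte markers summed to 54010 to 69640 against 71150 to 93770 (1 of 6 called lower). Most of that sum was Alb (36040 to 52340 against 59540 to 79770), whose difference did not pass (0.55 ± 0.26 SE). Alb was the only hepatocyte marker that was higher, the other 5 were lower, and the median over the 6 was -0.40. The 5 stellate cell markers summed to 136 to 149 against 176 to 217 (1 of 5 called higher). Most of that sum was Dcn, whose difference did not pass (0.41 ± 0.20 SE), and the gene called was Reln (0.55 ± 0.17). The 5 endothelial markers summed to 105 to 113 against 120 to 136 (1 of 5 called higher). The gene called was Stab2 (1.16 ± 0.28), at 18.4 to 26.3 against 40.1 to 53.3. Clec4g was lower (-0.16, not past the test), and the median over the 5 endothelial markers was 0.14. The macrophage (203 to 293 against 173 to 221), lymphocyte (5.38 to 10.3 against 3.07 to 8.13), bile duct, adipose and neutrophil lists overlapped between the series, and 0 of their genes passed. The part of these cells in the proteasome result was not tested.

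Of 33 tested genes for ubiquitin, ubiquitin carriers, proteasome-bound proteins and the Nfe2l1 pathway, 4 were lower (11.6% of all genes) and 5 higher (13.5% of all genes) in the higher-numbered HFD libraries, shares near those of all genes, with a median log2 difference of 0.10. The lower ones included the lid subunit Sem1 (-0.79 ± 0.11, adjusted p = 0.000604), the ubiquitin receptor Adrm1 (-0.54 ± 0.10, adjusted p = 0.00212) and Rps27a, which encodes ubiquitin joined to a ribosomal protein (-0.48 ± 0.11, adjusted p = 0.00612). The higher ones were Usp14, a deubiquitinase bound to the cap (0.73 ± 0.12, adjusted p = 0.000962), Uba6, a ubiquitin-activating enzyme (0.71 ± 0.15, adjusted p = 0.00442), Ecpas, a proteasome adaptor (0.55 ± 0.12, adjusted p = 0.00650), Ddi2, the protease that releases Nfe2l1 (0.47 ± 0.09, adjusted p = 0.00316), and Ube3c, a ubiquitin ligase (0.32 ± 0.11, adjusted p = 0.0400). Nfe2l1 itself (-0.36 ± 0.18, adjusted p = 0.160) and the assembly factor Pomp (-0.31 ± 0.12, adjusted p = 0.0855) did not pass. Sem1 and Adrm1, structural parts outside the naming rule, were thus lower, while the proteasome-bound Usp14 and Ecpas were higher. The polyubiquitin gene Ubb (-0.16) did not pass. In the genotype and diet comparisons and between the chow series, 0 of the 33 passed (limma, adjusted p under 0.05), and at an unadjusted p under 0.05 the genotypes differed in 1 gene on chow (6.08% of all genes) and 3 on HFD (8.6%), the diets in 8 among controls (12.9%) and 0 among mutants (6.86%), the interaction in 1 (4.21%) and the chow series in 6 (11.6%).

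Near-identical copies limit what can be said of a few genes. Psme2 and Psme2b (on chromosome 11) are 99.4% identical over 794 bases, with 5 mismatches, so reads can be split between them. Psme2b made up 0.214% to 2.20% of their sum, and the sum differed between the HFD series by -0.37, as Psme2 did. Psmb5 has a processed pseudogene with a row of its own, Gm3375, that is 98.9% identical over 796 bases and took 1.29% to 8.20% of the pair's sum. The Psmb5 pair's sum differed by -0.57. Psma4, Psma5, Psmb3, Psmc1 and Psmd2 have pseudogene copies of over 95% identity without a row in the table, and reads from such copies may be counted with these genes.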

How the data were processed

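The authors aligned liver reads (mm10) with kallisto and evaluated genes with sleuth, per the labels and the study's methods. Tool versions and the annotation release are not given in the sources used here. The deposited table holds 1 value per gene and library: a coverage-type signal on the TPM scale (transcripts per 1000000) whose columns do not sum to 1000000, as after sleuth's scaling between libraries, and no counts or depth are held.

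From it, log2(value + 1) of 12704 genes (those reaching 1 in 4 libraries or more) was fitted with limma 3.58.1 in R 4.3.3 (trended empirical Bayes, Benjamini-Hochberg over all genes, threshold 0.05). Genotype, diet and their interaction used 4 group means over the 16 libraries, and title series were added as 1 term per diet. Folds are on the log2(value + 1) scale. The members and lists were chosen with earlier results of these data known. Named genes are the catalytic, inducible, activator, inhibitor and tissue-restricted members, Psmd4, Psmd14 and the 3 members with the smallest adjusted p in each comparison. Any other member could be named by its range, and Psmb8, Psmb9 and 1 list of related genes were added. Of the 37 symbols on that list, 33 had a row, and Shfm1, Paaf1, AI314180 and Ufd1l did not. Calls were tested on simulated data first. The noise there was independent between genes, without effects of GC content, length or column total shared within a library. That test therefore cannot show how far such effects shape the calls between the HFD series. Transcript length and GC content are medians over CCDS transcripts of GENCODE M21 (GRCm38), and copies came from BLAST 2.17.0 (at least 95% identity over 50% of the length). Some genes of the related list are not reported here by name.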

Additional observations from a re-analysis of the deposited data

Results flagged for a closer look

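Within groups of 4, a library's gap to its nearest neighbour passed Dixon's 95% limit in 17 of 192 combinations of gene and group (8.85%). Chance flags about 1 in 20 of independent values, which genes of the same libraries are not, and no excess is read from these 17 flags. Of these, 6 fell on Mutant_HFD 1, the only mutant among the lower-numbered HFD titles: Psmd4 at 80.5 (the others 54.3 to 57.95), Psmc1 at 82.2 (53.6 to 57.5), Psmc2 at 51.3 (55.1 to 55.6), Psmd8 at 110.2 (90.1 to 93.3), Psma4 at 123 (96.3 to 99.2) and Psmb3 at 192 (118 to 128). A further 5 fell on Control_HFD 4, the only control among the higher-numbered HFD titles: Psmb6 at 137 (232.7 to 251), Psmb5 at 29.1 (50.2 to 50.8), Psmg1 at 18.5 (31.6 to 33.1), Psme4 at 27.96 (17.2 to 18.7) and Psmg4 at 24.6 (52.9 to 56.2).

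The other 6 were single values in other libraries. Psmd2 stood at 74.6 in Control_HFD 1 (64.1 to 65.9), Psmd10 at 9.31 in Control_HFD 2 (7.65 to 7.92), Psmd5 at 15.8 in Mutant_Chow 4 (12.3 to 12.8) and Psma5 at 58.5 in Control_Chow 4 (47.4 to 47.8). Psmc3ip, a recombination partner gene at low level, stood at 6.10 in Control_HFD 3 (0.360 to 1.02) and at 3.24 in Mutant_HFD 2 (0.296 to 0.683).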

How the results depend on the processing

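No paired analysis was possible because replicate numbers were given in the order of deposition and pair no libraries, so no replicate block was fitted. Between the HFD title series, the count of 19 genes past the threshold ranged from 3 to 21 when each library was left out in turn, with the lowest without Control_HFD 4, and was 5 with the GC and length trends removed. For diet in controls the count of 0 ranged from 0 to 10 (10 without Control_HFD 4, 9 higher and 1 lower) and was 13 with library weights. For genotype on HFD it was 0 and rose to 21 with library weights (4 higher and 17 lower), where 30.9% of all genes passed. With columns rescaled to 1000000, the members' median log2 difference was -0.1071 for diet in controls, 0.0278 for the interaction and -0.0212 for the HFD series. With the GC and length trends removed, 9 members changed sign between the HFD series: Psmc6 (-0.0642), Psmg3 (0.1362), Psme1 (0.1712), Psmc3 (0.1356), Psmb4 (0.1933), Psmb2 (0.2845), Psmd3 (0.2148), Psma2 (-0.3961) and Psma3 (-0.0073). Psmf1 ranged from -0.0020 (without Mutant_HFD 1) to 0.105 when each library was left out in turn. The cause was not tested. Of the values over many genes, 336 kept their direction and side of the threshold or stayed within 1.5 times, and 8 moved. Among values of single genes, 970 stayed the same, 53 were weaker, 9 stronger and 4 reversed. Between the HFD series, Psme2 was weaker in 7 of 25 settings, Psmc5 in 6 and Psmc1 in 0. Depth is unknown, so counting error could not be given.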
